A study of Mus musculus with 6 samples.

Results

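The genes described here are 6 of the 27998 genes in the deposited table: Pam, Pcsk1, Pcsk2, Cpe, Scg5 and Pcsk1n, the enzymes and helper proteins that turn neuropeptide precursors into finished peptides. They were taken by name from a list of peptide-processing genes, and Pam was chosen by its measured level, which was higher in the non-peptidergic neurons of mice without Ttpa. Every difference of Pam between Ttpa-/- and wild type mice is therefore a description with no test. The other 5 genes, and all 6 genes between the 2 diets, were tested. All 6 genes had counts in every mouse.

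Neuropeptides are made as long precursors that are cut and trimmed inside dense-core vesicles. The prohormone convertases encoded by Pcsk1 (PC1/3) and Pcsk2 (PC2) cut precursors after pairs of basic residues, and carboxypeptidase E, encoded by Cpe, removes the basic residues left at the new end. Pam encodes peptidylglycine alpha-amidating monooxygenase, which uses copper, ascorbate and oxygen to turn a C-terminal glycine into the amide that peptides such as CGRP and substance P carry. Scg5 encodes 7B2, a chaperone and inhibitor of PC2, and Pcsk1n encodes proSAAS, an inhibitor of PC1/3. In dorsal root ganglia, which hold the cell bodies of sensory neurons, peptidergic nociceptors are the best known users of this pathway.

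Single-cell RNA libraries were made from dorsal root ganglion neurons of 6 mice, 2 in each of 3 groups, and each group held 1 female and 1 male. The groups were Ttpa-/- mice on a vitamin E deficient diet, Ttpa-/- mice on a vitamin E supplemented diet, and wild type (Ttpa+/+) mice on the diet labelled basal. The product of Ttpa binds alpha-tocopherol, the main form of vitamin E, and keeps it in circulation. The Ttpa-/- mice were 6 months old and the wild type mice 5 months old, so genotype, age and, in part, diet cannot be told apart in comparisons with wild type. Strain, litter and the sites of the Ttpa allele are not given in the labels, and the p-values measure the spread between single mice.

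The libraries summed to 12538785 to 19383933 unique molecular identifiers (UMIs, counted RNA molecules), with a median of 2499.5 to 4959 UMIs per cell. Per library, 75 to 105 cells carried a barcode that also occurred in another library. Of 21024 cells kept, 20823 fell in 20 neuron clusters. Clusters were named from marker genes as NP1-like (Mrgprd, Lpar3), NP2-like (Mrgpra3) and NP3-like (Sst, Nppb) non-peptidergic neurons, PEP-like peptidergic nociceptors (Tac1, Adcyap1, Gal), TH-like neurons (Th, Slc17a8), NF-like large neurons (Pvalb, Ntrk2) and TRPM8-like neurons (Foxp2), and 1 cluster led by Dcn stayed unnamed. Of the PEP-like clusters, 8 (854 cells) is led by Fam19a1 and 9 (775 cells) by Smr2, without Tac1, Adcyap1 or Gal among their leading genes. In them 5 and 4 of 13 PEP markers were raised, and cluster 9 had a mean log2 fold of -0.15 over that set. The NP1-, NP2- and NP3-like classes held 3064, 1625 and 1864 cells. TRPM8-like held 363 cells in all and 20 in the wild type male. Ttpa gave 4 and 5 UMIs in the deficient mice, 1 and 4 in the supplemented mice and 0 in both wild type mice, and a 3' tag does not check an allele whose deleted part is not given.

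On the mouse genome (GRCm38/mm10, GENCODE M21), Pam lies on the minus strand of chromosome 1 from 97795114 to 98095646. Pcsk1 lies on the plus strand of chromosome 13 from 75089826 to 75134861, and Pcsk2 on the plus strand of chromosome 2 from 143546156 to 143816285. Cpe lies on the minus strand of chromosome 8 from 64592542 to 64693054, Scg5 on the minus strand of chromosome 2 from 113776362 to 113829121, and Pcsk1n on the plus strand of the X chromosome from 7919822 to 7924410. Other annotated genes overlap 3 of the members: Pcsk2os1 and Pcsk2os2 run against Pcsk2, Eras runs against Pcsk1n, and Gm3531 is among those that share Pam's strand. How reads in those stretches were assigned was not examined.

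The promoter sequences of the gene with the largest fitted difference between genotypes over all neurons (Pam) and of the gene with the fewest counts (Pcsk1) are shown to set the 2 side by side. They are RefSeq promoters (GRCm38.p6) cut to the bases before the annotated gene start, written 5′ to 3′ on the gene's strand. Capitals mark the GC box GGGCGG, the cyclic AMP response element (CRE) half-site TGACG and the whole element TGACGTCA, each searched on both strands.
Pam, chr1:98095647-98095896, minus strand: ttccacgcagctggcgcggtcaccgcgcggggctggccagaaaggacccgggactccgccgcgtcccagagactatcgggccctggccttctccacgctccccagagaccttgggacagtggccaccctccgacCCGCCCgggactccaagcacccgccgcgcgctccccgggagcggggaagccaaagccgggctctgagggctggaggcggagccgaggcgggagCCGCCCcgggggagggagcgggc
Pcsk1, chr13:75089607-75089825, plus strand: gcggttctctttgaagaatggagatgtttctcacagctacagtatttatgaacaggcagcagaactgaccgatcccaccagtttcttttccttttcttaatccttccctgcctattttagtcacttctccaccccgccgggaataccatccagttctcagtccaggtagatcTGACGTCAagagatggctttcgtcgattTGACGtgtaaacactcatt
The Pam sequence is 75.6% G or C and holds 2 GC boxes and 0 CRE half-sites. The Pcsk1 sequence is 45.7% G or C and holds 0 GC boxes and 3 half-site matches, of which 2 overlap in 1 whole element. Of all 32851 RefSeq promoters cut to 250 bases, 32.7% hold a GC box and 17.8% a half-site, and of those cut to 219 bases, 14.7% hold a half-site and 1.13% the whole element. No binding or chromatin measurement bears on these matches here.

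Pam was higher in the Ttpa-/- mice than in the wild type mice in every class of non-peptidergic neuron, and the level did not overlap between the genotypes. Levels are given as CPM, the UMIs of a gene per 1000000 UMIs summed over the cells of a class in 1 mouse. In NP1-like neurons, the Mrgprd-expressing cells that innervate the skin, Pam was 282.6 CPM in the deficient female and 195.2 in the deficient male, 357.0 in the supplemented female and 276.6 in the supplemented male, and 161.4 in the wild type female and 146.0 in the wild type male. The lowest Ttpa-/- mouse, the deficient male, was still above both wild type mice. In NP2-like neurons, which express the itch receptor gene Mrgpra3, Pam was 267.4 and 340.6 CPM in the deficient female and male, 459.3 and 308.4 in the supplemented female and male, and 202.3 and 176.7 in the wild type female and male. In NP3-like neurons, which express Sst and Nppb, it was 612.0 and 506.0, 784.2 and 595.4, and 490.4 and 386.7 CPM in the same order. The wild type female and the deficient male were nearly level in NP3-like neurons, and the supplemented female was the highest mouse in each of the 3 classes.

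The fitted log2 fold change of both Ttpa-/- groups against wild type (edgeR, TMM scaling) was 0.81 ± 0.14 (SE) in NP1-like, 0.82 ± 0.17 in NP2-like and 0.47 ± 0.16 in NP3-like neurons, or 1.75-, 1.77- and 1.38-fold. These values come from the contrast by which the gene was picked, and their standard errors were derived from the F statistic of the same fit. Pam was also higher outside the non-peptidergic classes. In PEP-like nociceptors, Pam was 801.7 and 563.3 CPM in the deficient female and male, 908.0 and 670.5 in the supplemented female and male, and 450.7 and 347.8 in the wild type female and male, with a log2 fold change of 0.83 ± 0.17. In TH-like neurons, which include the C-fibre low-threshold mechanoreceptors, it was 766.8 and 735.2, 1119 and 747.5, and 441.3 and 508.2 CPM (log2 fold change 0.78 ± 0.19). In NF-like neurons, the large myelinated mechanoreceptors and proprioceptors, it was 323.3 and 210.7, 299.6 and 229.2, and 171.7 and 130.7 CPM (0.80 ± 0.16). Pam was higher in these 3 further classes beside those in which it was picked. Their sums come from the same mice and libraries, in the same contrast. A difference in Pam between whole libraries would appear in every class, so these 3 classes are no independent check of the pick.

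TRPM8-like neurons were the exception. There Pam was 1005 and 598.2 CPM in the deficient female and male, 506.0 and 936.2 in the supplemented female and male, and 731.9 and 187.5 in the wild type female and male, so the genotypes overlapped. The log2 fold change of 0.59 ± 0.39 was 0.00 without the wild type male, whose sum came from 20 cells, and 2.05 without the wild type female.

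**Figure D1:**
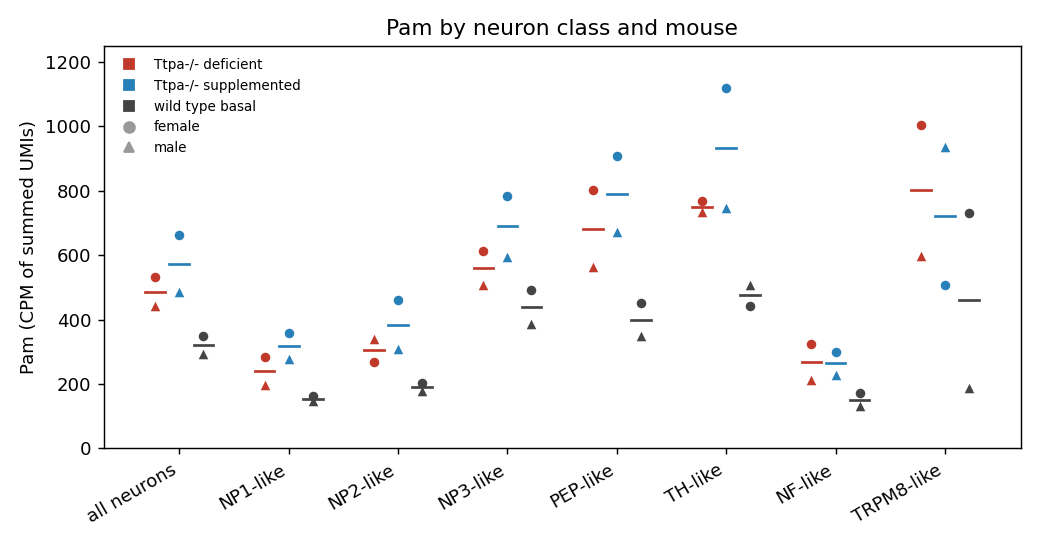
Pam level in each mouse (vertical axis, CPM of the UMIs summed per class; points are mice, circles female and triangles male, bars the mean of the 2 mice of a group) over all neurons and in 7 neuron classes. All 4 Ttpa-/- mice lie above both wild type mice in all neurons and in every class but TRPM8-like.

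Over all neurons, Pam was 531.8 and 442.0 CPM in the deficient female and male, 661.2 and 485.1 in the supplemented female and male, and 348.6 and 292.7 in the wild type female and male (log2 fold change 0.70 ± 0.15 for both Ttpa-/- groups, 0.59 ± 0.17 for the deficient and 0.80 ± 0.17 for the supplemented group, which share the same wild type mice). All 4 Ttpa-/- mice were above both wild type mice in 6 of 7 classes, where 7.66% of gene and class pairs were so arranged, and over all neurons, where 6.22% of genes were. Nothing is read from these shares for Pam, since the contrast was used to pick it. The classes held different shares of the neurons, with PEP-like cells at 28.8% to 34.7% in Ttpa-/- and 36.5% to 39.4% in wild type mice and NP1-like cells at 13.3% to 20.2% and 8.06% to 10.9%, so values over all neurons mix classes in different proportions. In each of the 3 groups the female was above the male over all neurons and in NP1-, NP3-, PEP- and NF-like neurons. The order was mixed in NP2-, TH- and TRPM8-like neurons. With 1 mouse of each sex per group these are values of single mice, and the share of all genes so ordered was not counted.

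The mean level of Pam ran from 113 to 2629 CPM over the clusters, a wider span than that between genotypes in any of them. The highest mean over the 6 mice was in cluster 14, a TH-like cluster led by Spry2, at 2629 CPM, with 3413 and 2219 in the deficient female and male, 3424 and 3263 in the supplemented female and male, and 1532 and 1919 in the wild type female and male. The unnamed cluster 19, led by Dcn, followed at 1873 CPM and cluster 7, the PEP-like cluster that expresses Gal and Chrna3, at 1325 CPM. The lowest were the NP1-like clusters 18 and 1, at 113 and 117 CPM, and the NF-like cluster 16 at 143 CPM. Every pair of neighbouring clusters in this order overlapped across mice. The remaining NP1-like cluster, 15, stood apart from 1 and 18 at 729 CPM, and Pam took no part in the clustering. Lpar3 and Mrgprd are among the leading genes of clusters 1 and 15. Cluster 18 is led by Cyp26b1, and its leading genes include Mrgprd but not Lpar3.

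**Figure D2:**
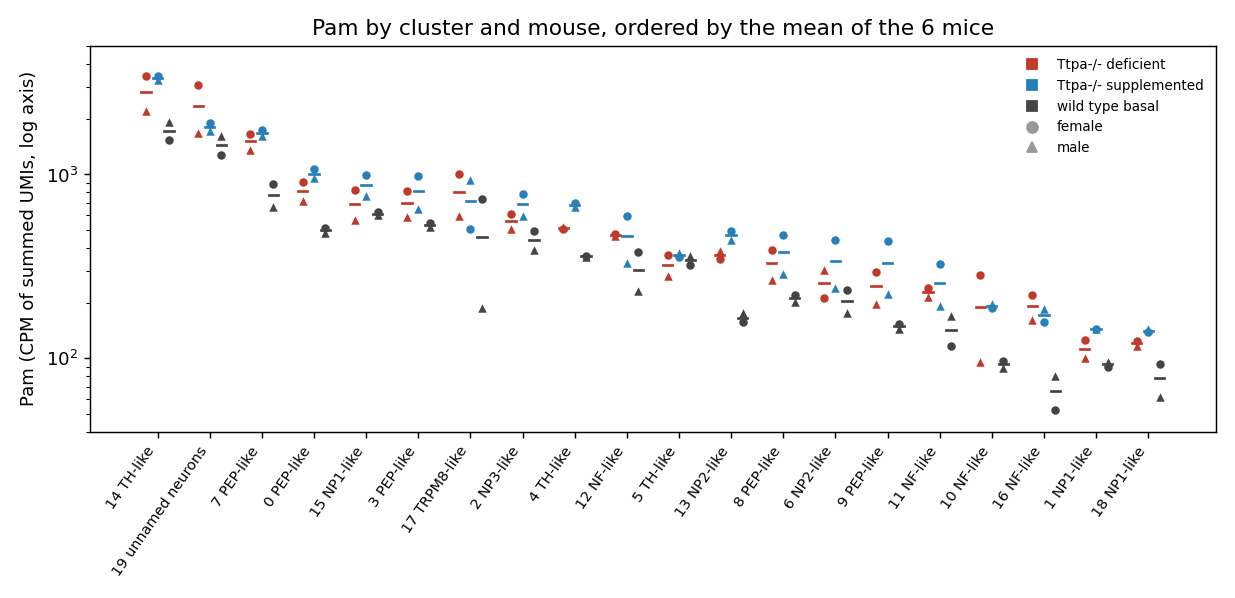
Pam level per mouse (vertical axis, CPM, log axis) in the 20 neuron clusters, ordered by their mean, with the class of each cluster on the horizontal axis; circles are females, triangles males and bars the mean of the 2 mice of a group. Cluster 14 is highest at 2629 CPM, the NP1-like cluster 18 lowest at 113 CPM, and cluster 5 shows no gap between genotypes.

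All 4 Ttpa-/- mice were above both wild type mice for Pam in 14 of 20 clusters (7.5% of gene and cluster pairs overall), again as a description. The fitted log2 fold change was highest in the NF-like cluster 16 (1.37), the NP2-like cluster 13 (1.29) and the PEP-like cluster 7 (1.01). It was -0.05 in the TH-like cluster 5, where the 4 Ttpa-/- mice ranged from 278.8 to 373.6 CPM and the wild type mice were at 322.9 and 358.6. Within NP1-like neurons it was 0.42 in cluster 1, 0.33 in cluster 15 and 0.69 in cluster 18, each below the 0.81 of the whole class. The Pam-high cluster 15 made up 19.9% and 18.6% of NP1-like cells in the deficient female and male, 25.2% and 16.2% in the supplemented female and male, and 12.2% and 10.1% in the wild type female and male. When the 3 NP1-like clusters were weighted equally, an alternative added after the values were seen, the log2 ratio of the mean Pam level fell from 0.85 to 0.42. The same weighting gave 0.94 in place of 0.86 in NP2-like, 0.73 in place of 0.83 in TH-like, 0.85 in place of 0.88 in PEP-like and 0.84 in place of 0.81 in NF-like neurons. The share of cluster 15 was thus higher in all 4 Ttpa-/- mice than in both wild type mice, and so was the Pam level within clusters 1 and 18. Within cluster 15 the genotypes overlapped, with the deficient male, at 568.3 CPM, below the wild type mice at 625.5 and 599.8 CPM.

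Cells were also compared after thinning each to 1000 UMIs, because the wild type libraries were among the deepest. In NP1-like neurons, a Pam UMI was then found in 20.6% and 16.2% of cells of the deficient female and male, 27.5% and 22.1% of the supplemented female and male, and 13.3% and 13.9% of the wild type female and male. Before thinning, the shares in the same order were 51.6%, 64.3%, 63.2%, 48.9%, 50.6% and 48.7%, at median depths of 4606 to 10080 UMIs per cell. In NP3-like neurons the thinned shares were 31.9% to 39.3% in Ttpa-/- mice and 25.4% and 24.8% in wild type mice (before thinning, 56.8% to 69.1% against 60.8% and 66.1%). No class here should lack Pam, so the background from free RNA was not measured. Over the clusters, the thinned share ran from 4.35% (29.0% before thinning) in cluster 18 of the wild type female to 83.3% (97.8%) in cluster 14 of the deficient female.

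Markers of satellite glia, which wrap these neurons, moved in part with the genotype. In NP1-like sums, 9 of 10 satellite glia markers had a higher mean in Ttpa-/- mice, and their summed level was 585.0 to 976.7 CPM in Ttpa-/- and 622.7 to 634.4 in wild type mice, with 0 markers without a count. In NP2-like sums 9 of 10 were higher (627.4 to 1202 against 637.1 to 708.5 CPM), and in NP3-like sums 9 of 10 (666.9 to 1290 against 676.2 to 916.1 CPM). The ranges overlapped in these 3 classes. In TH-like sums 10 of 10 were higher and the ranges did not overlap (699.5 to 1259 against 546.7 to 672.4 CPM), and in PEP-like sums 9 of 10 were higher (1111 to 2059 against 1123 to 1558 CPM). The summed markers of myelinating Schwann, mural and erythroid cells did not overlap between the genotypes in PEP-like neurons. Myelinating Schwann markers summed to 346.5 to 486.6 CPM in Ttpa-/- and 320.8 to 338.0 CPM in wild type mice there, with 7 of 8 higher, mural markers to 6.27 to 17.3 against 4.58 to 5.15 CPM, with 6 of 6 higher, and haemoglobin and other erythroid markers to 106.3 to 234.3 against 18.1 to 18.3 CPM, with 5 of 5 higher. Erythroid ranges did not overlap over all neurons either (38.7 to 224.5 against 10.8 to 37.4 CPM, with 5 of 5 higher). The same held in TRPM8-like neurons (7.98 to 2214 against 0 to 7.47 CPM, with 5 of 5 higher), where the mural ranges did not overlap as well. In NP2-like neurons 0 of 5 erythroid markers were higher (4.24 to 32.4 against 6.40 to 237.8 CPM). In the NP1-, NP3-, TH- and NF-like classes the erythroid ranges overlapped. The part of these cells in the Pam values was not tested.

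The diets gave no called difference for Pam. This contrast compares Ttpa-/- mice with one another and was not used to pick the gene. Deficient minus supplemented, the log2 fold change was -0.21 ± 0.17 over all neurons, with a 95% interval of -0.55 to 0.12 (adjusted p = 0.999, edgeR quasi-likelihood test with Benjamini-Hochberg adjustment over all genes). It was -0.41 ± 0.16 in NP1-like neurons (unadjusted p = 0.0158, adjusted p = 0.935 by edgeR), -0.34 ± 0.18 in NP2-like, -0.32 ± 0.18 in NP3-like, -0.21 ± 0.19 in PEP-like, -0.32 ± 0.21 in TH-like and -0.01 ± 0.18 in NF-like neurons, and 0.15 ± 0.42 in TRPM8-like neurons. The supplemented and deficient mice overlapped in all 7 classes, where 15.3% of gene and class pairs had both deficient mice above both supplemented mice and 15.7% the reverse. In 5 of 20 clusters both supplemented mice were above both deficient mice, where 15.7% of gene and cluster pairs were so arranged, and in 0 of 20 was the order reversed (16.4%). The fitted value was below 0 in 6 of 7 classes, and it passed the test in none.

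Pcsk1, the convertase for the first cuts, was sparse. It gave 725 UMIs over all neurons, and 306 of them were in NF-like and 295 in PEP-like neurons. Its level was 21.1 ± 2.91 CPM (SD, n = 6 mice) in NF-like and 12.03 ± 1.35 in PEP-like neurons, which did not overlap. NP1-like and TH-like neurons held 13 and 17 UMIs in all, so a level of 0.773 CPM and of 1.01 CPM there rests on few molecules. In NP2-like neurons, where 35 UMIs were counted, the level was 6.48 and 2.97 CPM in the deficient female and male, 4.88 and 5.87 in the supplemented female and male, and 1.97 and 1.01 in the wild type female and male. The genotypes did not overlap there, on fewer than the 60 UMIs asked of the pairs in the background share of 7.66%, with a log2 fold change of 1.59 ± 0.62 that did not pass the test (unadjusted p = 0.0162, adjusted p = 1.0 by edgeR). Over all neurons the difference had the other sign, -0.30 ± 0.18 (adjusted p = 1.0 by edgeR).

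Pcsk2, the convertase for the later cuts, was highest in NP2-like (197 ± 12.7 CPM, SD, n = 6 mice) and NF-like neurons (196 ± 16.2), which did not differ beyond their spread, followed by TRPM8-like (185 ± 80.0) and NP1-like neurons (157 ± 20.6). It was 99.1 ± 12.1 CPM in PEP-like and 65.2 ± 12.2 in NP3-like neurons, and 4.96 ± 1.75 in TH-like neurons, from 82 UMIs. The TH-like class, which had the highest mean of Pam, thus had the lowest level of Pcsk2. In NP1-like neurons Pcsk2 was 155.9 and 145.3 CPM in the deficient female and male, 172.2 and 189.2 in the supplemented female and male, and 135.8 and 140.9 in the wild type female and male. All 4 Ttpa-/- mice were above both wild type mice in NP1-like and NF-like neurons, 2 of 7 classes, where 7.66% of gene and class pairs were so arranged. The log2 fold change in NP1-like neurons was 0.22 ± 0.11 for both groups (adjusted p = 0.882, edgeR) and 0.35 ± 0.12 for the supplemented group (unadjusted p = 0.00942, adjusted p = 0.531, edgeR), and in NF-like neurons 0.12 ± 0.12 for both groups (adjusted p = 1.0, edgeR). Between diets, both supplemented mice were above both deficient mice for Pcsk2 in 3 of 7 classes (15.7% of gene and class pairs). The reverse order held in 0 of 7 (15.3%). Deficient minus supplemented, the log2 fold change in NP1-like neurons was -0.26 (unadjusted p = 0.0422, adjusted p = 0.935, edgeR).

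Scg5, which encodes the PC2 chaperone 7B2, followed Pcsk2 only in part over the classes. It was 176 ± 20.1 CPM (SD, n = 6 mice) in NP2-like and 150 ± 17.8 in NP1-like neurons, 99.6 ± 8.85 in NF-like and 89.0 ± 7.82 in PEP-like neurons, 80.5 ± 14.9 in TH-like and 78.3 ± 40.4 in TRPM8-like neurons, and 46.1 ± 12.1 in NP3-like neurons. Neighbours from NF-like to TRPM8-like overlapped across mice. In NP3-like neurons Scg5 was 36.5 and 42.6 CPM in the deficient female and male, 62.1 and 55.7 in the supplemented female and male, and 50.02 and 29.6 in the wild type female and male. Both deficient mice were below both supplemented mice, as in 15.7% of all gene and class pairs (log2 fold change -0.61 ± 0.26, unadjusted p = 0.0265, adjusted p = 1.0 by edgeR), and the deficient mice lay between the 2 wild type mice. In NP1-like neurons the order of the diets was the opposite, as in 15.3% of pairs, with a log2 fold change of 0.30 ± 0.13 (adjusted p = 0.935, edgeR).

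Pcsk1n, which encodes the PC1/3 inhibitor proSAAS, gave 280885 UMIs over all neurons. It was 4411 ± 487 CPM (SD, n = 6 mice) in NP2-like and 4102 ± 535 in PEP-like neurons, which overlapped, 3070 ± 218 in NP1-like, 2399 ± 306 in NP3-like, 2389 ± 319 in TRPM8-like and 1806 ± 317 in NF-like neurons, and 1315 ± 92.0 in TH-like neurons. Over all neurons it was 2815 and 3216 CPM in the deficient female and male, 2890 and 2715 in the supplemented female and male, and 2578 and 3471 in the wild type female and male. The 2 wild type mice were the lowest and the highest of the 6, so the gap within that group was wider than any between groups. The log2 fold change of both Ttpa-/- groups against wild type was -0.08 ± 0.13 (95% interval -0.34 to 0.18).

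Cpe, the trimming carboxypeptidase, varied little between mice in most classes, and most in TRPM8-like neurons, where it ran from 449.1 to 869.1 CPM. It was 984 ± 80.4 CPM (SD, n = 6 mice) in NF-like and 891 ± 46.4 in NP1-like neurons, 625 ± 46.0 in TH-like, 621 ± 137 in TRPM8-like, 543 ± 28.6 in NP2-like and 423 ± 26.4 in NP3-like neurons, and 324 ± 27.5 in PEP-like neurons, the class known for its peptides. Over all neurons Cpe was 669.4 and 591.1 CPM in the deficient female and male, 618.7 and 693.1 in the supplemented female and male, and 650.1 and 597.5 in the wild type female and male. The genotypes overlapped, with a log2 fold change of 0.02 ± 0.12 (95% interval -0.21 to 0.24).

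**Figure D3:**
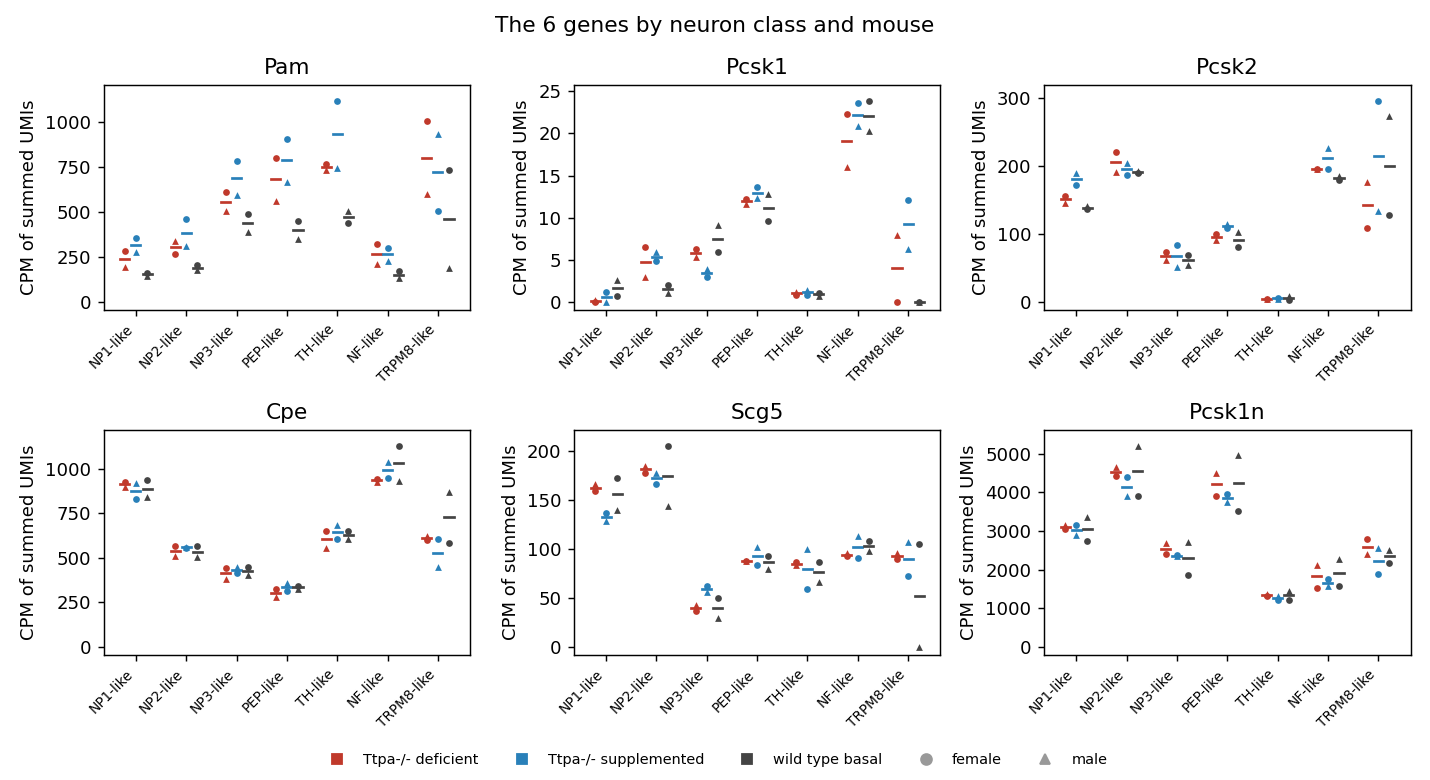
Level of each of the 6 genes (vertical axes, CPM, a separate scale per gene) in 7 neuron classes, with 1 point per mouse (circles female, triangles male) and bars for the mean of the 2 mice of a group. Pam separates the wild type mice from the others in 6 classes, whereas Cpe runs from 984 CPM in NF-like to 324 CPM in PEP-like neurons with the genotypes overlapping in each class.

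None of the 5 genes beside Pam passed the test in any class. Between both Ttpa-/- groups and wild type, edgeR called 0 of 31 gene and class pairs that passed the filter on low counts, where 0.0442% of all gene and class pairs were called. The count at an unadjusted p under 0.05 was 1 (Pcsk1 in NP2-like neurons), and DESeq2 and limma-voom also called 0. Called pairs were 0 of 31 for the deficient group against wild type (background 0.0229%, 0 at an unadjusted p under 0.05), 0 of 31 for the supplemented group against wild type (0.0507%, 3 unadjusted) and 0 of 38 for the 2 diets with Pam included (0.00491%, 4 unadjusted). DESeq2 and limma-voom called 0 in each of these too. Over all neurons edgeR called 0 of the 5 genes against wild type and 0 of the 6 between diets, with 0 at an unadjusted p under 0.05, and 0% of all genes. Since so few genes of any kind were called, a count of 0 is near the background.

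**Figure D4:**
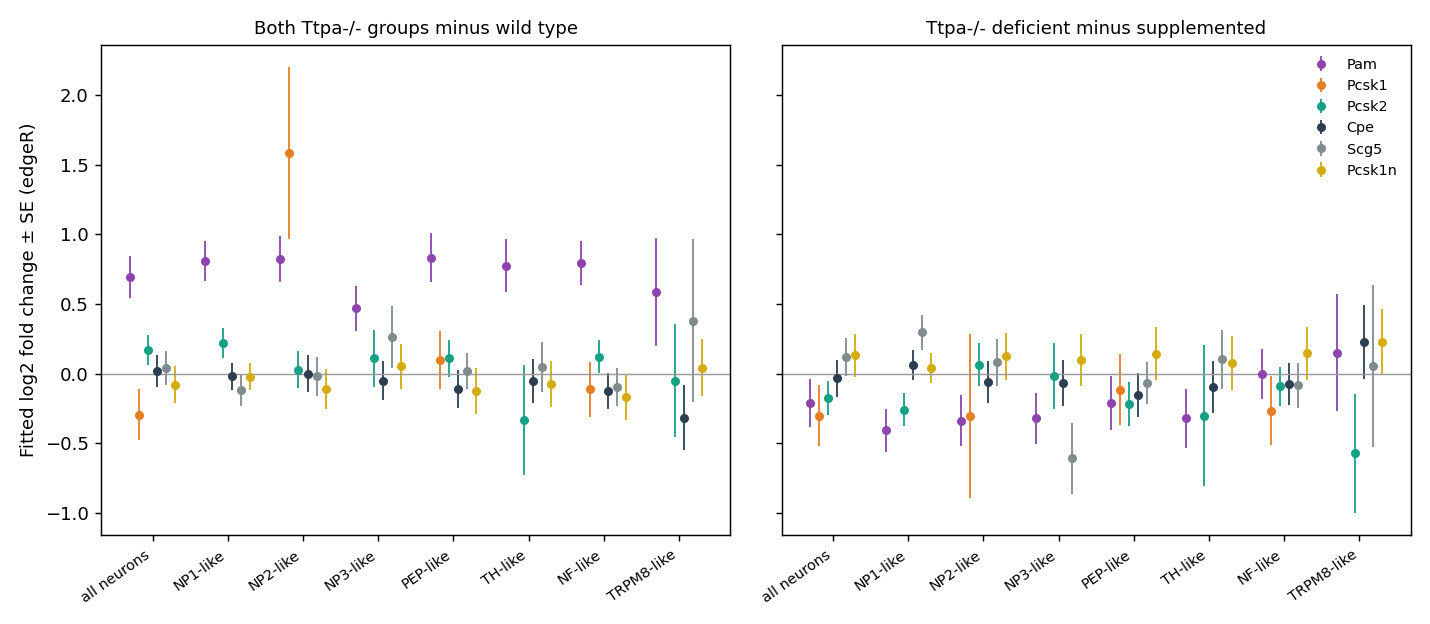
Fitted log2 fold change with its standard error (vertical axis, edgeR) of the 6 genes over all neurons and in each class, for both Ttpa-/- groups minus wild type and for deficient minus supplemented Ttpa-/- mice; gene and class pairs under the filter on low counts are left out. Pam lies at 0.47 to 0.83 against wild type, and the other genes at -0.34 to 0.38 apart from Pcsk1 in NP2-like neurons at 1.59. Between diets the values run from -0.61 (Scg5 in NP3-like neurons) to 0.30.

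The widths of the intervals differed between genes. Over all neurons the 95% intervals of both Ttpa-/- groups against wild type were -0.04 to 0.38 for Pcsk2, -0.19 to 0.27 for Scg5 and -0.66 to 0.06 for Pcsk1 on the log2 scale. A test of whether the genotype difference varied between the 7 classes called 0 of the 5 genes (0.04% of 12494 genes called by edgeR), with Pcsk1 at an unadjusted p of 0.00831 (adjusted p = 1.0) and the other 4 genes at 0.697 or more.

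Genes that work beside Pam were taken from 8 lists of 82 names, of which 81 were in the table. Over all neurons, 59 of them were tested between both Ttpa-/- groups and wild type, and edgeR called 0, with 2 at an unadjusted p under 0.05. DESeq2 and limma-voom called 0 as well, with 3 and 2 unadjusted. Of the listed genes that handle copper or ascorbate, which Pam uses, 4 of 6 were higher. Their median log2 fold change was 0.06, against -0.01 over all genes tested. The list was not limited to genes that deliver copper to Pam. Ccs, a copper chaperone, had 0.31 ± 0.14 (adjusted p = 1.0, edgeR) and Slc23a2, an ascorbate transporter, -0.05 ± 0.12. In NP1-like neurons 2 of 5 of these genes were higher, with a median of -0.05. Of the 3 listed cytosolic partners of Pam, 1 was higher over all neurons, with a median of -0.03. Kalrn was at 0.12 ± 0.19 and Uhmk1 at -0.03 ± 0.12.

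The precursors whose peptides are amidated gave no called gene. Over all neurons 3 of 10 tested precursors were higher in Ttpa-/- mice, with a median log2 fold change of -0.22. These sums hold fewer PEP-like and more NP1-like cells in Ttpa-/- mice: the markers of PEP neurons summed to 2574 to 3069 CPM in Ttpa-/- and 3053 to 3582 CPM in wild type mice, with 5 of 13 higher, and those of NP1 neurons to 629.7 to 849.5 against 467.9 to 645.0 CPM, with 8 of 8 higher. The part of these shares in the precursor values was not tested over all neurons. Within classes, 2 of 5 tested precursors were higher in NP1-like (median -0.15), 1 of 5 in NP2-like (-0.19) and 3 of 5 in NP3-like neurons (0.06). Over all neurons Gal, the galanin precursor, had -0.40 ± 0.10 (unadjusted p = 0.00163, adjusted p = 0.836, edgeR), Calca, which encodes CGRP, -0.28 ± 0.13, and Calcb, its paralog, 0.25 ± 0.17. In NP2-like neurons Tac1, the substance P precursor, had -0.95 ± 0.21 (adjusted p = 0.107, edgeR). Among precursors whose peptides carry no amide, 3 of 4 were higher over all neurons, with a median of 0.07. Across the 20 clusters, the summed level of 18 amidated precursors and the level of Pam had a Pearson r of 0.20 on the log2(CPM + 1) scale, over clusters that share the same 6 libraries. Cluster 14, where Pam was 2629 CPM, held 397 CPM of these precursors, and cluster 3, where Pam was 681 CPM, held 10893 CPM. The NP2-like cluster 6, where Pam was 268 CPM, held 8263 CPM, between the PEP-like clusters 7 (9698 CPM) and 9 (7833 CPM).

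The other lists showed no called gene. Among granins and dense-core vesicle proteins 5 of 14 were higher over all neurons (median -0.10), with Syt7, a vesicle calcium sensor, at 0.34 ± 0.11 (unadjusted p = 0.0108, adjusted p = 1.0, edgeR) and Cadps2, which primes vesicles, at -0.28 ± 0.15. Of other proprotein convertases 4 of 6 were higher (median 0.09), with Pcsk7 at 0.25 ± 0.18 and Pcsk5 at -0.25 ± 0.44. Among other carboxypeptidases and finishing enzymes 2 of 7 were higher (median -0.06), and among peptide-degrading enzymes 3 of 9 (median -0.16), with Ece1, an endothelin-converting enzyme, at 0.17 ± 0.14 and Nln, neurolysin, at -0.57 ± 0.35.

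The genes whose level was most like that of each member were found by Pearson correlation of log2(CPM + 1) over 42 points, 7 classes in 6 mice, which share libraries and classes. For Pam they were Cbx3 (r = 0.87), Marf1 (0.84), Adgrl3 (0.82) and Pim1 (0.81). For Pcsk1 they were Tbc1d9 (0.88), Kctd9 (0.86) and Map6 (0.85), and for Pcsk2 Chn1 (0.95), Rassf3 (0.94) and Basp1 (0.89). For Cpe they were Zfp385b (0.93), Atp5g1 (0.89) and Ndufab1 (0.86), for Scg5 Pex7 (0.91), Serpina3g (0.90) and Mapk12 (0.90), and for Pcsk1n Calca (0.92), Rgs17 (0.88) and Antxr2 (0.88). Among the 6 genes themselves, Pcsk2 and Pcsk1n had the highest r (0.60), and Pam had -0.51 with Pcsk2, -0.60 with Cpe and -0.08 with both Pcsk1 and Scg5. Pam thus ran against Cpe and Pcsk2 over the classes.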

How the data were processed

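UMI counts per gene and cell, as deposited by the authors in 1 table, were the starting point. Per the submitters' processing notes, bcl2fastq 2.17.1.14, Cell Ranger 2.0.1, Seurat 2.3.0 and limma 3.32.10 were used with mm10, and the rule that selected the cells was not given in the sources used here. Per the labels' protocols the libraries were 3' v2 droplet libraries. The members and gene lists were chosen with earlier results of these data known.

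A cell needed 500 genes and no more than 20% mitochondrial UMIs, which removed 27. Doublets were scored with scrublet in scanpy 1.11.5. Its automatic threshold marked 45 cells, so 634 were removed at 0.8% per 1000 cells. Clustering used 2000 variable genes without the 6 members, 30 components, 15 neighbours and Leiden resolution 1. Markers were fixed first, and the naming rule (3 markers at 1.5-fold in 5% of cells) was set after clusters were seen. Thinning left out 133 cells under 1000 UMIs. Sums per mouse and class (20 or more cells in each mouse) were fitted in edgeR 4.0.16 (filterByExpr, TMM, quasi-likelihood F test, 1 mean per group over all 6 mice, Benjamini-Hochberg over all genes, threshold 0.05). The script was tested on simulated data. DESeq2 1.42.0, limma-voom (limma 3.58.1), RLE factors, no filter, sex as a term, doublets kept, marker gating, resolution 2, thinning of sums and leaving out each mouse were alternatives. Standard errors of the edgeR fits were the absolute log2 fold change divided by the square root of its quasi-likelihood F statistic. For Pam against wild type they describe the fit and are not read as a test. The 95% intervals are normal intervals from the standard errors, so they are narrower than intervals that allow for the few degrees of freedom. CPM depends on depth, so sums of few UMIs are imprecise. Groups not overlapping were counted over genes with 60 or more UMIs. Named genes were the 6 members, up to 2 per direction and list with the smallest unadjusted p, and the genes with the highest correlation at a mean of 10 CPM or more. One gene that this rule names is not reported here.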

Additional observations from a re-analysis of the deposited data

How the results depend on the processing

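The count of called genes beside Pam stayed at 0 in the 3 contrasts with wild type, and at 0 for all 6 genes between diets, under every alternative run, among them DESeq2, limma-voom, sex as a term and each mouse left out. The smallest adjusted p over these alternatives was 0.674 for the deficient and 0.408 for the supplemented group against wild type, 0.631 for both groups, and 0.393 between diets. The count of genes whose genotype difference varied between classes also stayed at 0. For both Ttpa-/- groups against wild type, the log2 fold change of Pam ranged over the alternatives from 0.67 to 0.93 in NP1-like, 0.64 to 0.96 in NP2-like and 0.32 to 0.62 in NP3-like neurons, and from 0.00 to 2.05 in TRPM8-like neurons, where either wild type mouse decided the value. Between diets, the sign for Pam changed in 11 of 119 values. With doublets kept, Pcsk1 in TH-like neurons was 1.40 in place of 1.01 CPM, and the other levels moved by less than their SD. Fits with 1 mouse left out leave a group with 1 mouse, which is assumed to vary like the others. Without a low-count filter the median of all genes in TRPM8-like neurons moved to 0.10. TRPM8-like neurons gave no value at Leiden resolution 2. No paired analysis was possible because the mice of the 3 groups carry no shared number or litter. Pcsk1 had under 40 UMIs in 5 of 7 classes, so its levels there are imprecise.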

Other observations

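Sex was recorded for each mouse. In wild type mice the X-linked gene Pcsk1n was 2578 CPM in the female and 3471 in the male over all neurons, and in deficient mice 2815 and 3216, whereas in supplemented mice the female, at 2890 CPM, was above the male, at 2715. With 1 mouse of each sex per group these are values of single mice. A test of sex by genotype was added after the values were seen. Over all neurons it called 0 of the 5 genes other than Pam (0 of 13351 genes called by edgeR). There the unadjusted p was 0.0462 for Pcsk1 and 0.0501 for Scg5. Within classes, the smallest adjusted p of the 5 genes by edgeR was 0.446 (Scg5 in TH-like neurons). For Scg5 the unadjusted p was 0.0229 in NP2-like neurons, where 30 of 9039 genes were called. It was 0.0289 in TH-like neurons (0 of 9898 called) and 0.00408 in TRPM8-like neurons (0 of 2901). For Pcsk2 it was 0.0473 in TH-like neurons.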
